A study of Caenorhabditis elegans with 6 samples.

Results

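This account describes 33 genes of the meiotic chromosome axis, synapsis and recombination in ddi-1(icb156) and wild-type Caenorhabditis elegans, out of 20001 genes in the deposited tables. The members were listed by name for their roles in meiosis, as a measure of the meiotic germline apart from sperm and oocyte genes, and all 33 were found by symbol in the WBcel235 annotation and passed the filter on low counts. RNA came from whole animals, grown from bleached embryos on E. coli OP50 at 20°C to the L4 larval stage, with 3 libraries of ddi-1(icb156) and 3 of wild type, each labelled as a biological replicate. The icb156 allele is non-synonymous and, per the study, a loss-of-function allele. It came from a chemical mutagenesis screen and lies in the gene of the protease that helps to activate the transcription factor SKN-1A. Its listed strain also holds the transgene icbIs4, in which chil-27p::GFP is joined by a col-12p::mCherry marker, and the sources used here do not state whether wild type has icbIs4 too. The transgene and any other mutation left by the screen therefore cannot be told apart from the allele in these groups.

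In meiotic prophase each chromosome folds along a protein axis of cohesin and HORMA-domain proteins. Homologous chromosomes pair at special regions called pairing centres and are zipped together by the synaptonemal complex, while programmed DNA breaks are repaired into crossovers. In C. elegans most of these genes are transcribed in the germ line, and in L4 hermaphrodites the first germ cells pass through meiosis to form sperm before the gonad turns to oocytes.

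Library totals were 28962104 to 36258118 estimated counts in ddi-1(icb156) and 40554395 to 47142002 in wild type, and each member had between 1013 and 29123 counts over the 6 libraries. On the first principal component of all tested genes, the mutants scored -62.8 to -50.6, wild-type replicates 1 and 3 scored 77.4 and 74.9, and wild-type replicate 2 scored 17.2. Results are therefore given with and without wild-type replicate 2. That library was singled out from these same data for lying nearest to the mutants. Leaving it out therefore tends to widen the differences, and calls made without it are no added support. The ddi-1 transcript itself stood at 35.0, 35.3 and 35.5 CPM (counts scaled to the library's size) in the mutants, against 48.5, 50.3 and 48.6 CPM in wild type, and a point mutation of this kind does not check the labels by its level.

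The meiotic genes lay slightly lower in ddi-1(icb156) than in wild type, but few of them passed the test. In edgeR's quasi-likelihood test over 15410 genes, with a limit of 0.01 on p and of 0.1 on adjusted p, 2 of the 33 genes were lower, 0 were higher and 31 did not pass, where 13.4% of all tested genes were lower and 9.96% were higher. With samples scaled by library size alone, the split of all calls moved to 53.2% higher, against 42.6% as fitted. The fitted difference was negative for 32 of the 33 genes, against 49.5% of all tested genes, and 15 of the 33 genes (45.5%) were lower at an unadjusted p below 0.05, against 22.8% of all tested genes, with 0 members higher at that limit. DESeq2's Wald test gave 7 lower genes and 0 higher ones, where 18.4% of all tested genes were lower and 12.5% were higher. The median log2 fold change of the 33 genes was -0.25 (quartiles -0.36 and -0.19), a level 16.2% lower, and that of all tested genes was 0.01. In 12 of the 33 genes all mutant libraries lay below all wild-type libraries, and this held for 23.5% of all tested genes. In whole animals, fewer germ cells and less RNA per germ cell cannot be told apart.

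**Figure D1:**
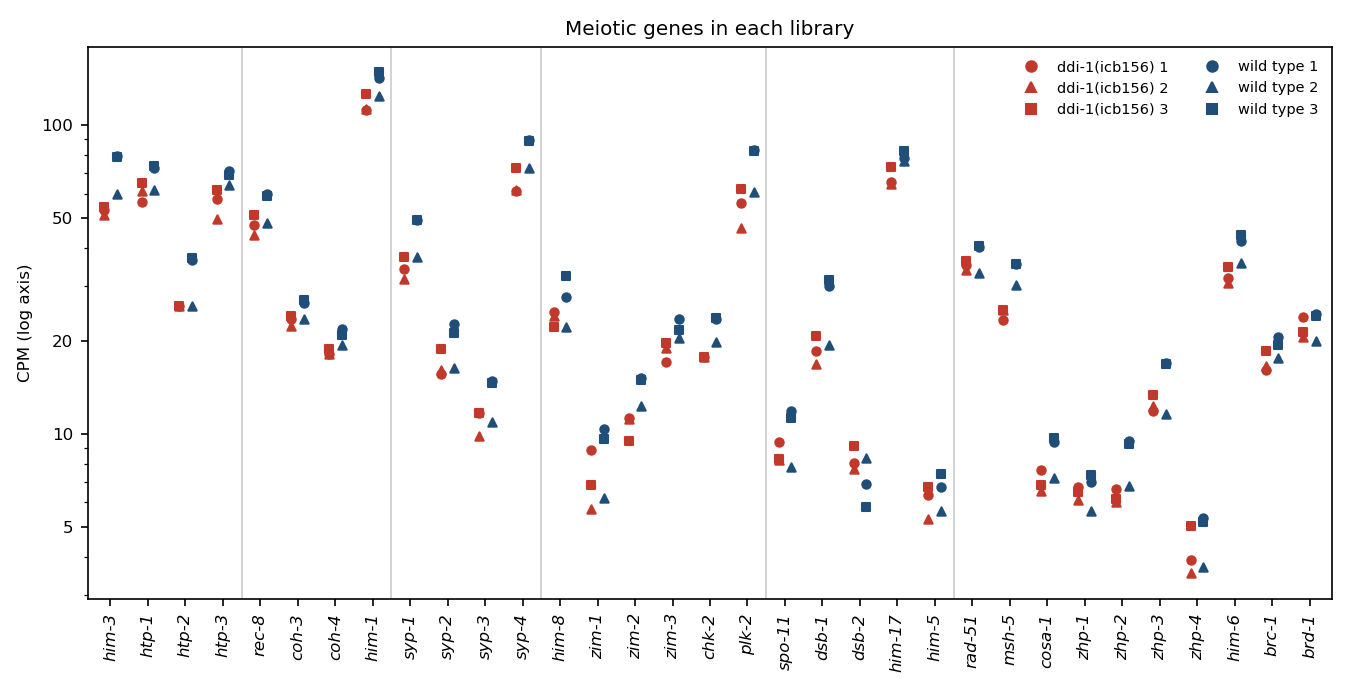
Counts scaled to library size (CPM) on a log axis for each of the 33 meiotic genes, with ddi-1(icb156) libraries in red to the left of wild-type libraries in blue and a marker shape for each replicate number. Grey lines part the axis, cohesin, synaptonemal complex, pairing, break formation and crossover genes. The wild-type triangle, replicate 2, is the lowest wild-type point in 32 of the 33 genes.

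The number of calls turned on wild-type replicate 2. It was the lowest wild-type library in 32 of the 33 genes, against 44% of all tested genes. Its level lay within the range of the mutant libraries for 15 members, below that range for 6 and above it for 12. Wild-type replicates 1 and 3, by contrast, both lay above all mutant libraries in 31 members, against 34% of all tested genes. Without wild-type replicate 2, 21 of the 33 genes were lower and 0 were higher, where 22.2% of all tested genes were lower and 19.7% were higher, and the median was -0.38. Whether the replicate numbers pair the libraries is uncertain. Same-numbered libraries deviated together, but mutant replicate 3 with wild-type replicate 1 gave the same correlation, 0.11, as the pair of number 1 (see the methods). With the replicate number as a block 7 of the 33 genes were lower and 0 higher, where 14.3% of all tested genes were lower and 9.11% were higher. These 7 were him-3, msh-5, syp-1, syp-4, plk-2, dsb-1 and him-6. Without ddi-1(icb156) replicates 1, 2 and 3 in turn, 1, 1 and 3 members were lower, where 5.16%, 4.93% and 7.62% of all tested genes were. Without wild-type replicates 1 and 3 in turn, 1 and 0 members were lower, where 5.9% and 5.25% of all tested genes were. The members' share of lower genes was thus below that of all tested genes in 4 of the 5 fits that kept wild-type replicate 2 and left out another library, and above it without ddi-1(icb156) replicate 3. Other settings gave 1 to 3 lower members. They were 1 with library size alone, 1 each on log2(TPM + 1) and log2(TPM + 0.5), 2 each with no filter on low counts and with a stricter one, and 3 at an adjusted p below 0.05, where 11%, 9.45%, 9.73%, 11.8%, 13.1% and 15.2% of all tested genes were lower.

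**Figure D2:**
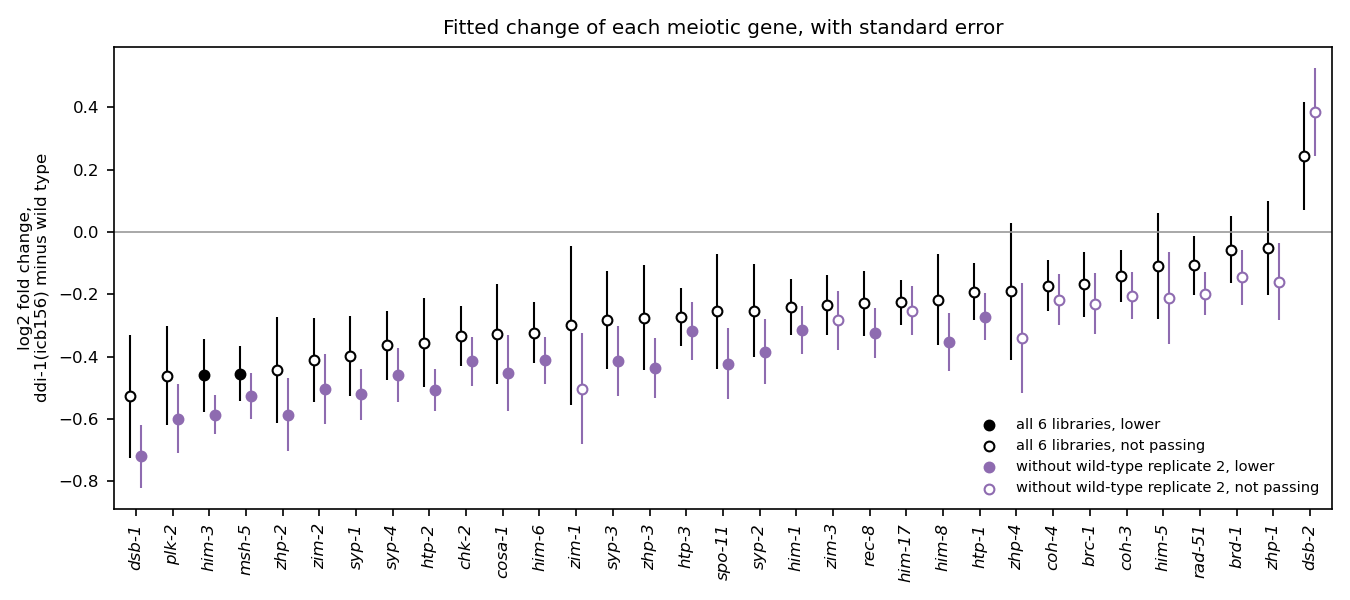
Log2 fold change of each gene, ddi-1(icb156) minus wild type, with its standard error, over all 6 libraries in black and without wild-type replicate 2 in purple. Filled points passed the test as lower, which 2 genes did over all libraries and 21 without wild-type replicate 2.

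Among the 4 axis genes, whose HORMA-domain proteins line the chromosome and control synapsis, him-3 fell. It had 53.2, 51.1 and 54.2 CPM in ddi-1(icb156) replicates 1 to 3, against 79.7, 59.7 and 78.6 CPM in wild-type replicates 1 to 3. The groups did not overlap, but wild-type replicate 2 lay nearer to the mutants than to the other wild-type libraries. The log2 fold change was -0.46 (standard error 0.12, adjusted p = 0.0356), and him-3 no longer passed without any one of wild-type replicate 1, wild-type replicate 3 or the 3 mutant libraries (log2 fold change -0.48 to -0.39, adjusted p = 0.0859 to 0.137), nor with samples scaled by library size alone (-0.38, adjusted p = 0.0510). On WBcel235, him-3 spans 6977508 to 6978765 of chromosome IV. htp-2 had 25.9, 26 and 26 CPM in the mutants, against 36.6, 25.9 and 37.1 CPM in wild type. Its mutant libraries and wild-type replicate 2 were nearly equal, and only wild-type replicates 1 and 3 stood higher (log2 fold change -0.36, standard error 0.14, adjusted p = 0.109). With wild-type replicate 2 left out, htp-2 was lower (-0.51, adjusted p = 3.47e-04). htp-1, its close paralog, had 56.5, 61.1 and 64.8 CPM in the mutants, against 72.8, 61.6 and 73.9 CPM in wild type (log2 fold change -0.19, standard error 0.09, adjusted p = 0.167). Reads that fit both paralogs are divided by estimation, so the split between htp-1 and htp-2 is uncertain. htp-3, the scaffold on which the other HORMA-domain proteins assemble, had 57.4, 49.7 and 61.7 CPM in the mutants, against 71.1, 64.1 and 69.0 CPM in wild type. Its groups did not overlap, and it did not pass (-0.27, standard error 0.09, adjusted p = 0.0701).

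The 4 cohesin genes had a median log2 fold change of -0.20, and none of them passed. rec-8, which encodes the meiotic kleisin that holds sister chromatids, had 47.3, 44 and 51.2 CPM in the mutants, against 59.9, 48.2 and 58.7 CPM in wild type (log2 fold change -0.23, standard error 0.10, adjusted p = 0.148). coh-3 and coh-4, which encode another and nearly identical pair of meiotic kleisins, did not pass (log2 fold changes -0.14 and -0.17, adjusted p = 0.247 and 0.161). All libraries lay between 22.4 and 27 CPM for coh-3 and between 18.1 and 21.8 CPM for coh-4, and only for coh-4 did the groups not overlap. Reads that fit both genes are divided by estimation, so the split between coh-3 and coh-4 is uncertain. him-1, the SMC1 subunit of cohesin, which dividing somatic cells use as well, was the most counted member, with 112, 113 and 126 CPM in the mutants, against 142, 124 and 148 CPM in wild type (-0.24, standard error 0.09, adjusted p = 0.0882). Without wild-type replicate 2, rec-8 and him-1 were lower (adjusted p = 0.00905 and 0.00944), while coh-3 and coh-4 still did not pass (adjusted p = 0.0543 for each).

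The 4 genes of the central region of the synaptonemal complex had a median log2 fold change of -0.32, and none passed in the main test. syp-1 had 34.3, 31.7 and 37.3 CPM in the mutants, against 49.3, 37.5 and 49.3 CPM in wild type (log2 fold change -0.40, standard error 0.13, adjusted p = 0.0609). syp-4 had 61.1, 61.6 and 72.4 CPM in the mutants, against 89.6, 72.4 and 89 CPM in wild type (-0.36, standard error 0.11, adjusted p = 0.0547). In both genes the highest mutant library and wild-type replicate 2 almost met. In the fit with a block for replicate number both were lower (-0.39 and -0.36, adjusted p = 0.0285 and 0.0376). syp-2 and syp-3, the less abundant pair per transcript length, overlapped between the groups, at 15.6, 16.1 and 18.8 CPM in the mutants, against 22.6, 16.3 and 21.3 CPM in wild type for syp-2 (-0.25, standard error 0.15, adjusted p = 0.244), and at 11.7, 9.83 and 11.7 CPM, against 14.8, 11 and 14.6 CPM, for syp-3 (-0.28, standard error 0.16, adjusted p = 0.22). All 4 syp genes were lower without wild-type replicate 2, by 0.38 to 0.52 on the log2 scale.

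Of the 6 genes for pairing, none passed in the main test, and the median log2 fold change was -0.32. him-8, zim-1, zim-2 and zim-3 encode zinc-finger proteins that bind the pairing centres of the X chromosome (HIM-8) and of the autosomes (the ZIM proteins), and they lie side by side on chromosome IV, from 10547086, where zim-1 begins, to 10563974, where him-8 ends. zim-2 had 11.2, 11.2 and 9.44 CPM in the mutants, against 15.2, 12.3 and 14.9 CPM in wild type, with no overlap (-0.41, standard error 0.14, adjusted p = 0.0652). It was lower by DESeq2's Wald test (adjusted p = 0.0203) and without wild-type replicate 2 (adjusted p = 0.00607). zim-1 was spread within both groups, at 8.84, 5.69 and 6.80 CPM in the mutants, against 10.4, 6.19 and 9.61 CPM in wild type (-0.30, standard error 0.25, adjusted p = 0.417). him-8 also overlapped, at 24.7, 24.1 and 22.2 CPM in the mutants, against 27.8, 22.2 and 32.6 CPM in wild type (-0.22, standard error 0.14, adjusted p = 0.302). zim-3 did not overlap and did not pass, at 17.1, 19 and 19.7 CPM in the mutants, against 23.6, 20.5 and 21.6 CPM in wild type (-0.24, standard error 0.10, adjusted p = 0.114). zim-1 and zim-2 share 223 bases of annotated exons on the same strand, so the split of counts between them is uncertain.

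The kinase genes chk-2 and plk-2 govern pairing and the entry into synapsis. chk-2 had 17.7, 17.8 and 17.7 CPM in the mutants, against 23.5, 19.8 and 23.7 CPM in wild type, with the mutant libraries almost equal and the groups apart (-0.33, standard error 0.10, adjusted p = 0.0463). Like the other members that did not pass with an adjusted p below 0.1, it missed only the limit of 0.01 on the unadjusted p. By DESeq2's Wald test (adjusted p = 0.0121) and without wild-type replicate 2 (adjusted p = 0.00245) chk-2 was lower. plk-2, which encodes a Polo-like kinase recruited to pairing centres, had 55.8, 46.4 and 61.9 CPM in the mutants, against 83.0, 60.5 and 82.5 CPM in wild type. Wild-type replicate 2 lay below the highest mutant library, and plk-2 did not pass (-0.46, standard error 0.16, adjusted p = 0.075) except in the blocked fit (adjusted p = 0.0151) or without wild-type replicate 2 (-0.60, adjusted p = 0.00235).

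The 5 genes for double-strand break formation held both ends of the range. dsb-1, which promotes break formation by SPO-11, had the most negative log2 fold change of the members, -0.53 (standard error 0.20, adjusted p = 0.0917), yet it did not pass. Its level was 18.6, 16.8 and 20.8 CPM in the mutants, against 30.2, 19.4 and 31.4 CPM in wild type, so wild-type replicate 2 stood among the mutants. It passed in the blocked fit (-0.50, adjusted p = 0.0412) and without wild-type replicate 2 (-0.72, adjusted p = 4.45e-04). dsb-1 spans 12408925 to 12410470 of chromosome IV, and 4 of its exon bases are shared with acl-13, which was lower itself (-1.64, adjusted p = 0.0336).

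dsb-2, its paralog and partner in break formation, was the sole member with a positive difference. It had 8.04, 7.67 and 9.11 CPM in the mutants, against 6.85, 8.32 and 5.77 CPM in wild type. Here wild-type replicate 2 was the highest wild-type library, the reverse of its place in the other 32 members. The log2 fold change was 0.24 (standard error 0.17, adjusted p = 0.327). With wild-type replicate 2 left out it was 0.38 (adjusted p = 0.0504), and dsb-2 did not pass in either fit. The transcript that took 97.0% of the dsb-2 counts is 1957 bases long in the files, whereas the longest transcript in the WBcel235 annotation, on chromosome II from 14411095 to 14412218, has 937 bases. Which other sequence the longer model covers was not examined. The neighbouring genes both had negative differences, F26H11.4 upstream with -0.89 (adjusted p = 0.0669) and exl-1 on the other strand with -0.52 (adjusted p = 0.0379).

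spo-11, which encodes the topoisomerase-like enzyme that cuts the DNA, had 9.38, 8.24 and 8.29 CPM in the mutants, against 11.8, 7.79 and 11.3 CPM in wild type. The groups overlapped through wild-type replicate 2, the lowest of all 6 libraries (-0.25, standard error 0.18, adjusted p = 0.339). him-17, a chromatin-associated protein needed for breaks, had 65.3, 64.5 and 73.2 CPM in the mutants, against 78.4, 76.4 and 82.6 CPM in wild type. This was one of the few members in which wild-type replicate 2 lay with the other wild-type libraries (-0.23, standard error 0.07, adjusted p = 0.0588, or -0.25 and adjusted p = 0.0259 without that library, where it missed only the limit on the unadjusted p). him-5, needed for breaks on the X chromosome, ranged from 5.28 to 6.74 CPM in the mutants and from 5.64 to 7.43 CPM in wild type (-0.11, standard error 0.17, adjusted p = 0.666).

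Among the 10 genes for strand exchange, crossovers and repair, msh-5 fell. It encodes a MutS-family protein that stabilizes crossover intermediates, and it had 23.4, 25.3 and 25.1 CPM in the mutants, against 35.4, 30.3 and 35.5 CPM in wild type. The log2 fold change was -0.45 (standard error 0.09, adjusted p = 0.0183), the smallest adjusted p of the members. Its groups lay apart, with a gap of several CPM even to wild-type replicate 2. It passed in every alternative except limma on log2(TPM + 1) and log2(TPM + 0.5) (adjusted p = 0.0635 and 0.0632) and the fit without wild-type replicate 3 (-0.42, adjusted p = 0.0879). On chromosome IV, msh-5 spans 13155233 to 13164054.

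The genes that act with msh-5 at crossover sites did not pass. cosa-1, which encodes a cyclin-like protein that marks these sites, had 7.60, 6.54 and 6.83 CPM in the mutants, against 9.37, 7.22 and 9.71 CPM in wild type (-0.33, standard error 0.16, adjusted p = 0.17). The zhp genes encode RING-finger proteins that act as the pairs ZHP-1 with ZHP-2 and ZHP-3 with ZHP-4 in crossover control. zhp-2 had 6.63, 6.0 and 6.16 CPM in the mutants, against 9.5, 6.77 and 9.26 CPM in wild type, with no overlap (-0.44, standard error 0.17, adjusted p = 0.0962). zhp-1, its partner, had 6.70, 6.10 and 6.47 CPM in the mutants, against 6.96, 5.64 and 7.35 CPM in wild type, and its fitted difference of -0.05 (standard error 0.15, adjusted p = 0.828) changed sign with library size alone and without wild-type replicate 3. zhp-3 and zhp-4 overlapped between the groups, with fitted differences of -0.28 and -0.19 on the log2 scale (adjusted p = 0.262 and 0.554). zhp-4 was the least counted member, at 3.89, 3.53 and 5.04 CPM in the mutants, against 5.32, 3.71 and 5.16 CPM in wild type. Without wild-type replicate 2, cosa-1, zhp-2 and zhp-3 were lower, and zhp-1 and zhp-4 did not pass.

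him-6, the C. elegans homolog of the BLM helicase, had 32.1, 30.8 and 34.6 CPM in the mutants, against 42.3, 35.7 and 44.1 CPM in wild type. Its groups did not overlap (-0.32, standard error 0.10, adjusted p = 0.0532), and it passed in the blocked fit (adjusted p = 0.036). rad-51, which encodes the recombinase that coats broken DNA and also serves repair outside meiosis, had 35.3, 33.9 and 36.4 CPM in the mutants, against 40.2, 33.1 and 40.5 CPM in wild type. Wild-type replicate 2 was the lowest of all 6 libraries, and rad-51 did not pass (-0.11, standard error 0.09, adjusted p = 0.430). brc-1 and brd-1, the homologs of BRCA1 and BARD1, also did not pass (-0.17 and -0.06, with adjusted p = 0.263 and 0.728). Without wild-type replicate 2 these 3 repair genes still did not pass (-0.20, -0.23 and -0.15, with adjusted p = 0.0409, 0.0796 and 0.206).

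The members differed widely in level and little in direction. Per transcript length, him-3 and htp-1 were the most abundant, with 49.3 ± 0.898 and 50.4 ± 4.13 TPM (counts scaled for transcript length and library size) in the mutants, against 66.1 ± 8.98 and 56.0 ± 4.47 TPM in wild type (SD, n = 3 each). These 2 neighbours in the order of levels did not differ beyond their spread in the mutants. In wild type, him-3 stood above htp-1 by more than the larger of their SDs. At the low end stood dsb-2, with 4.08 ± 0.296 TPM in the mutants and 3.37 ± 0.695 TPM in wild type, and zim-1, with 4.14 ± 2.69 TPM in the mutants and 4.23 ± 0.756 TPM in wild type (SD, n = 3 each). Relative to its mean, zim-1 varied most of the members in the mutants, with 7.25 TPM in replicate 1, against 2.58 and 2.6 TPM in replicates 2 and 3, and in replicate 1 its shorter isoforms held 40.1 and 48 of its counts. Ordered by wild-type mean, 24 of the 32 neighbouring pairs differed by less than the larger of their SDs. The break-forming enzyme spo-11 stood at 6.56 ± 0.649 TPM in the mutants and 7.57 ± 1.55 TPM in wild type, well below the axis protein genes. The median coefficient of variation over the members was 7.47% in the mutants and 13.5% in wild type, against 9.73% and 13.6% over all tested genes.

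**Figure D3:**
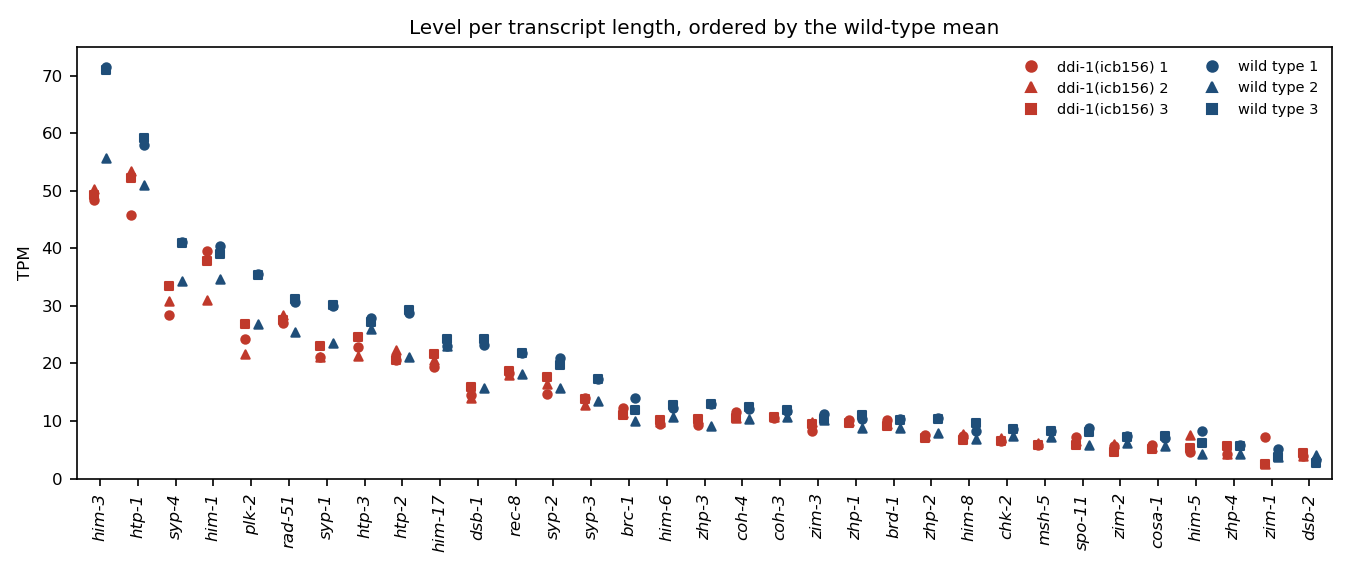
TPM of each gene on a linear axis from 0, ordered by the wild-type mean, with ddi-1(icb156) libraries in red to the left of wild-type libraries in blue. The level runs from him-3, with a wild-type mean of 66.1 TPM, to dsb-2, with 3.37 TPM.

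By position, 13 of the 33 genes lie on chromosome IV and 0 on the X chromosome, which hold 16.4% and 13.7% of the genes in the files. Chromosomes I and V hold 8 members each, chromosome III holds 3 and chromosome II holds dsb-2 alone. For 7 members the leading transcript in the files differs in length by 200 bases or more from the longest annotated one. It is shorter for syp-1, zhp-4, zim-2 and zim-3, which can be another isoform. It is longer than any annotated transcript for dsb-2, him-8 (3059 against 1254 bases) and rec-8 (2719 against 2465 bases). Which other sequence these longer models cover was not examined, and the counts of these genes are uncertain. For zim-2 the files also hold a transcript of 2318 bases, close to the longest annotated one of 2308, and for zim-1 a transcript of 3266 bases, longer than any annotated one, took 43.9% of the counts. Exons of 12 members overlap those of another gene. On the same strand these are coh-4 with Y45G5AM.7, syp-1 with F13A7.14, zim-1 with zim-2, dsb-1 with acl-13, zhp-2 with D1081.6 and zhp-4 with pro-3, and their counts are uncertain. him-3, syp-3, spo-11, dsb-2 and cosa-1 overlap a gene on the other strand by 17 to 178 bases, which matters if strand was not kept. Y71H2AM.12, which overlaps cosa-1, and prkl-1, which overlaps him-3, both fell (-0.82 and -0.80 on the log2 scale, adjusted p = 0.0207 and 0.0137).

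Other meiosis genes, a list not matched to the members for use outside meiosis, had a median nearer to 0. Of 49 tested genes from a second list, 3 were lower, 0 were higher and 46 did not pass, with a median log2 fold change of -0.14. The share of lower genes was thus 6.12%, where 13.4% of all tested genes were lower and 9.96% were higher. The differences ran from -1.43 to 0.29, with 44 negative and 5 positive. sun-1 and zyg-12, whose proteins bridge the nuclear envelope and move chromosomes during pairing, were lower (log2 fold changes -0.64 and -0.54, with standard errors of 0.16 and 0.10 and adjusted p = 0.0336 and 0.015). sun-1 had 26.7, 25.6 and 32.3 CPM in the mutants, against 49.5, 35.0 and 47.2 CPM in wild type. syp-6, another gene of the synaptonemal complex, was lower as well (-0.27, standard error 0.07, adjusted p = 0.0404). Without wild-type replicate 2, 14 of the 49 genes were lower, where 22.2% of all tested genes were, and the median was -0.20. With each of the 5 other libraries left out in turn, 1 or 2 of the 49 genes were lower, where 4.93% to 7.62% of all tested genes were.

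Genes of other germline stages were set beside the members, since whole animals hold all of them. Of 20 core germline genes, 6 were lower and 0 higher (median -0.42), among them csr-1, an Argonaute gene, gld-3 and gld-1, which encodes a translational repressor of early meiotic germ cells (log2 fold changes -0.59, -0.66 and -1.17, with adjusted p = 0.0235, 0.0265 and 0.0288). Of 23 spermatogenesis genes, 15 were lower (median -1.40), with spe-10, spe-26 and spe-4 at -1.48, -1.73 and -1.18 (adjusted p = 0.0263, 0.0287 and 0.0293). The single higher gene, named after its values were seen, was fog-1, a regulator of sperm fate, with 29.3, 29.7 and 29.3 CPM in the mutants, against 8.12, 18.8 and 9.13 CPM in wild type (1.29, standard error 0.32, adjusted p = 0.0337). fog-1 passed without wild-type replicate 2, and without any one of the other 5 libraries 0 spermatogenesis genes were higher. fog-3, also named after its values were seen, had 23.3, 22.5 and 22.5 CPM in the mutants, against 10.2, 18.4 and 10.3 CPM in wild type. Its groups did not overlap, and it did not pass (0.81, standard error 0.24, adjusted p = 0.0518). These were the 2 positive differences of the list, against 21 negative ones. Of 20 oogenesis genes, 13 were lower and 0 higher (median -1.12), and perm-4, perm-2 and puf-5 stood at -3.90, -4.04 and -2.0 (adjusted p = 0.00225, 0.00292 and 0.0235). Of 19 DNA replication genes, cye-1 alone was lower (-0.39, adjusted p = 0.0374), with a median of -0.04. The shares of lower genes were 30% for the core germline, 65.2% for spermatogenesis, 65% for oogenesis and 5.26% for DNA replication. Over all tested genes 13.4% were lower and 9.96% were higher, against 4.35% higher in the spermatogenesis list. In the second meiosis, core germline, oogenesis and DNA replication lists, 0 genes were higher at an unadjusted p below 0.05 or by DESeq2 either. With 1 library dropped, the counts of lower genes changed widely, and the medians kept their sign. The counts ran from 0 to 17 for the core germline and from 0 to 20 for spermatogenesis. For oogenesis they ran from 2 to 19, and for DNA replication from 0 to 3. Every list had its highest count without wild-type replicate 2. The median log2 fold change stayed between -0.53 and -0.35 for the core germline and between -1.71 and -1.21 for spermatogenesis. It stayed between -1.36 and -0.97 for oogenesis, and between -0.08 and -0.04 for DNA replication. With each of ddi-1(icb156) replicates 1 to 3 and wild-type replicates 1 and 3 left out, in that order, the counts were 0, 0, 11, 1 and 1 for the core germline, 0, 0, 6, 0 and 0 for spermatogenesis and 3, 2, 6, 3 and 3 for oogenesis. Of all tested genes 5.16%, 4.93%, 7.62%, 5.9% and 5.25% were lower in these fits, and 22.2% without wild-type replicate 2.

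On the log2 scale, relative to the mean of the wild-type libraries, the median of the 33 meiotic genes was -0.28, -0.32 and -0.16 in ddi-1(icb156) replicates 1 to 3, against 0.11, -0.20 and 0.11 in wild-type replicates 1 to 3. The spermatogenesis genes stood at -1.30, -1.38 and -0.96 in the mutants, against 0.41, -0.80 and 0.32 in wild type, and the oogenesis genes at -1.20, -1.21 and -0.88, against 0.32, -0.61 and 0.32. The DNA replication genes were close to level, at -0.07, -0.08 and 0.02 in the mutants, against -0.013, -0.0018 and 0.038 in wild type. In each of the first 3 lists wild-type replicate 2 was the lowest wild-type library and ddi-1(icb156) replicate 3 the highest mutant library. Mutant replicate 3 lay above wild-type replicate 2 for the 33 meiotic genes, and below it for the spermatogenesis and oogenesis genes.

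**Figure D4:**
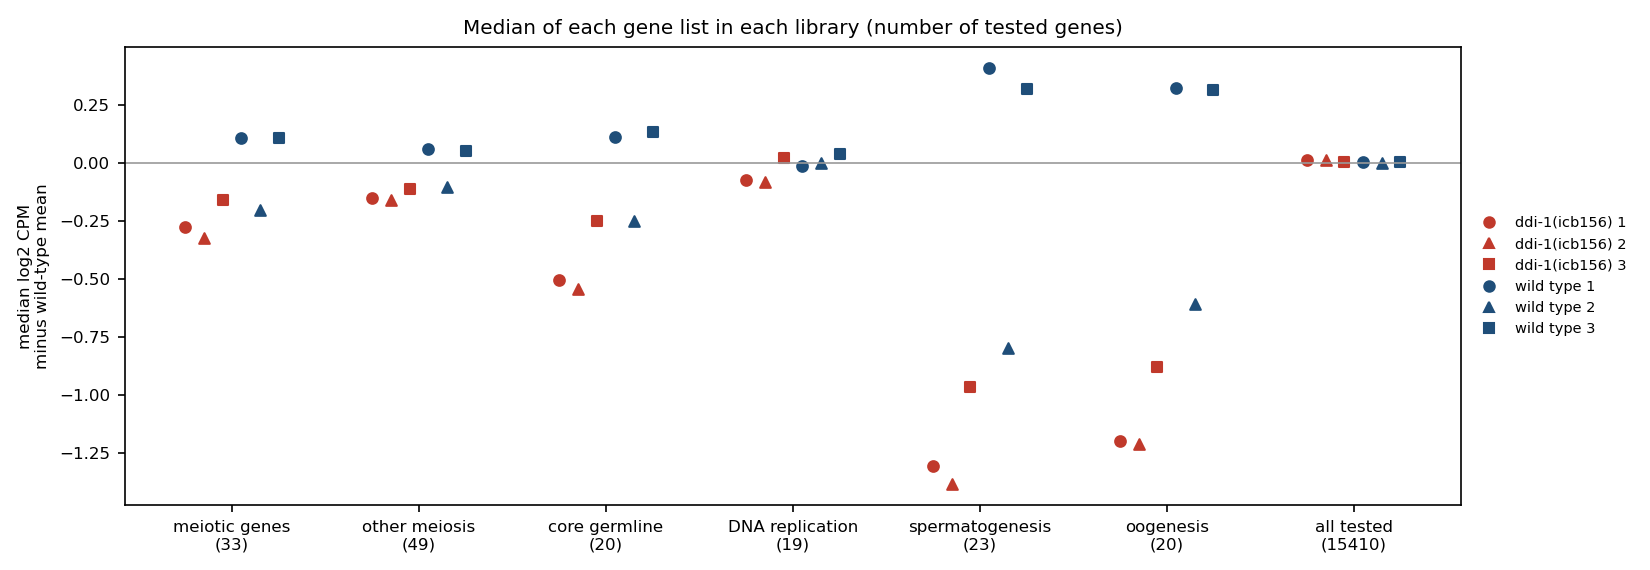
Median log2 CPM of each gene list in each library, minus the mean of the wild-type libraries, with ddi-1(icb156) in red to the left of wild type in blue and the number of tested genes under each list. The meiotic genes span -0.32 to 0.11, the spermatogenesis genes -1.38 to 0.41, and the wild-type triangle, replicate 2, lies toward the mutants in the meiosis, core germline, spermatogenesis and oogenesis lists.

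Summed over the list, the 33 meiotic genes took 927, 893 and 997 CPM in the mutants, against 1215, 994 and 1223 CPM in wild type. The highest mutant library thus stood just above wild-type replicate 2. For each CPM of the core germline list the meiotic genes had 0.331, 0.318 and 0.296 CPM in the mutants, against 0.274, 0.286 and 0.274 CPM in wild type. For each CPM of the spermatogenesis list they had 2.87, 3.02 and 2.52 CPM in the mutants, against 1.55, 2.38 and 1.58 CPM in wild type. Relative to both lists the meiotic genes were thus higher in every mutant library than in any wild-type library, and relative to DNA replication they were lower, at 0.737, 0.729 and 0.749 in the mutants, against 0.925, 0.768 and 0.898 in wild type.

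Some markers of other tissues and of stage differed between the groups. col-19, a collagen gene of the adult cuticle, had 0.737, 0.669 and 1.49 CPM in the mutants, against 65.0, 19.6 and 73.7 CPM in wild type, again with wild-type replicate 2 nearest to the mutants (log2 fold change -5.78, standard error 0.65, adjusted p = 0.00321). bli-1, another cuticle collagen gene, was lower (-3.82, adjusted p = 7.64e-05), and rol-6, also a collagen gene, was higher (0.68, adjusted p = 0.00668). For bli-1, wild-type replicate 2 was the wild-type library farthest from the mutants (707.9, 890.5 and 863.2 CPM in wild type). In dpy-7 and dpy-10, which did not pass, it lay above all mutant libraries and the other wild-type libraries below them. Wild type had 81.5, 313.7 and 117.7 CPM for dpy-7, against 147.6, 182.4 and 163.1 CPM in the mutants. In the lists of other cell types, 2 genes were lower and 1 higher of 10 for the epidermis, 0 and 4 of 10 for neurons, 1 and 0 of 10 for body wall muscle, 0 and 1 of 9 for the intestine and 2 and 2 of 7 tested for the somatic gonad, whose medians were -0.14, 0.40, -0.09, 0.13 and 0.18. These counts are to be read against the 13.4% of all tested genes that were lower and the 9.96% that were higher, and those of muscle and the intestine were near these shares. In the somatic gonad list fkh-6 was lower and lag-2 and fos-1 were higher (-0.58, 1.10 and 0.39, with adjusted p = 0.0177, 0.0222 and 0.0319). In muscle myo-3 was lower (-0.25, adjusted p = 0.0402), and in the intestine ifb-2 was higher (0.35, adjusted p = 0.0355). Higher in the mutants were the neuronal genes rab-3, snt-1 and ric-4 (0.68, 0.60 and 0.69, with adjusted p = 0.0063, 0.00732 and 0.01). The summed level of the neuron list was 444 to 518 CPM in the mutants and 348 to 423 CPM in wild type. The part that stage and tissue content have in the levels of the meiotic genes was not tested.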

How the data were processed

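The members and gene lists were chosen with earlier results of these data known. Per the labels and methods, kallisto was run against the WormBase transcriptome WS283 and the authors tested the groups with Sleuth (the sources used here give no versions). The deposited files hold kallisto's estimated counts for 37058 transcripts in each library, beside lengths and effective lengths, and the authors neither normalized nor pooled these values. Through the WBcel235 annotation of Ensembl release 115, 30413 transcripts were assigned to genes by transcript ID and 6631 by sequence name, and 14 kept their own names. Gene sums of estimated counts were rounded. filterByExpr of edgeR 4.0.16 (R 4.3.3) kept 15410 genes, and TMM factors ran from 0.9692 to 1.0716. The main test was edgeR's quasi-likelihood F test in its robust form, two-sided, with no covariate and Benjamini-Hochberg adjustment over these genes. A gene passed where p was under 0.01 and adjusted p under 0.1. A standard error is the size of the fold change divided by the root of F. TPM were computed here from estimated counts and effective lengths. The labels call the libraries biological replicates, and p-values set the difference between groups against the spread between replicates.

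Same-numbered libraries deviated together from their group means (correlations of 0.11, 0.31 and 0.19 for numbers 1 to 3 over the tested genes), and all were over the limit of 0.1 for pairing. Within a group the deviations cancel out, so these correlations depend on each other and are no separate evidence for each number. For number 1 the mutant of number 3 gave the same value, 0.11, and the labels do not say what a number marks. The alternatives were a replicate block, DESeq2 1.42.0, library size alone, no filter or a mean of at least 50 counts, limma 3.58.1 on log2 TPM with a pseudocount of 1 or 0.5, an adjusted p below 0.05, and each library left out in turn. The code was tested on simulated data with known changes. All 33 members were to be named, with passing genes of the second meiosis list (up to 8) and of each other list (up to 3) by p. Of the other meiosis and intestine lists, 1 symbol each had no match and was left out, and of the somatic gonad list 7 of 9 genes passed the filter.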

Additional observations from a re-analysis of the deposited data

How the results depend on the processing

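Against 2 lower members as fitted, DESeq2 and the replicate block gave 7 each, and library size alone and both TPM scales 1 each. DESeq2 and the block did not call the same genes. Both called him-3, msh-5, syp-1, syp-4 and him-6. DESeq2 also called zim-2 and chk-2 (adjusted p = 0.0203 and 0.0121), and the block plk-2 and dsb-1. The block changed no other call among the members than the 5 it added. Against -0.2543 as fitted, the median of the members was -0.1714 with library size alone, where 30 of the 33 differences were negative. It was -0.1825 and -0.1915 on the TPM scales with pseudocounts of 1 and 0.5. DESeq2 and the block gave 14 and 11 lower core germline genes, against 6. Of the DNA replication genes, 2 were lower with DESeq2, the block or an adjusted p below 0.05 and 0 with library size alone or either TPM scale, against 1, and their median was 0.0434 with library size alone and 0.0018 and 0.0019 on the TPM scales with pseudocounts of 1 and 0.5. Of the spermatogenesis genes, 2 were higher with DESeq2, library size alone, no filter, either TPM scale or the block, against 1. zhp-1 turned positive with library size alone (0.0325) and without wild-type replicate 3 (0.0281, in a range from -0.1592 over the libraries left out), and brd-1 with library size alone (0.0271). Leaving out 1 library gave 0 to 21 lower members with a median of -0.3839 to -0.2091, 1 to 14 lower other meiosis genes, 0 to 17 lower core germline genes, 0 to 20 lower and 0 to 2 higher spermatogenesis genes, 2 to 19 lower oogenesis genes, and 0 to 3 lower DNA replication genes with a median of -0.0842 to -0.037. Over all genes it gave 771 to 3474 lower and 931 to 3085 higher. The highest counts of lower genes were those without wild-type replicate 2, the wild-type library nearest to the mutants. Why it lay there was not tested. The least counted member, zhp-4, had 419 counts in the mutants and 594 in wild type, and how far depth limited its test was not tested.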
